A study of Mus musculus with 9 samples.

Results

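A pair of 5 Mb windows on mouse chromosome 14 held a smaller share of the Dppa4 peaks of P19 cells than of those of E14 or 3T3 cells. The inner window ran from 75 to 80 Mb and the terminal window from 120 to 125 Mb of the mm9 assembly, and a peak belonged to a window when its start lay inside it. By this rule 678 of the 229345 peaks of the 6 deposited lists were members, and another 6795 peaks lay on the rest of chromosome 14. The windows were chosen because P19 peaks were sparse in them. The P19 shortfall in peak share is therefore a description here and carries no test.

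Dppa4 (developmental pluripotency associated 4) is a nuclear protein with a SAP domain, a fold that contacts DNA. It is known from pluripotent cells, the early embryo and germ cells, where it acts with its partner Dppa2 on chromatin at promoters of developmental genes and on genes of the earliest embryonic programme. It is normally silent in differentiated cells such as fibroblasts, which makes ectopic expression in fibroblasts a way to ask where the protein goes without the pluripotent background.

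Chromatin immunoprecipitation with an antibody to DPPA4, followed by sequencing, was made in 2 libraries for each of 3 lines. P19 is an embryonal carcinoma line grown in serum-containing medium, E14 is a line of embryonic stem cells kept feeder-free in 2i medium with serum, and the 3T3 fibroblasts carried Dppa4 ectopically. P19 and E14 cells are not labelled as carrying a transgene, and what drives Dppa4 in the 3T3 cells is not given here. Whether the 2 libraries of each line stem from different cultures is not labelled, and their spread could be purely technical. The lists held 40011 and 51196 peaks in P19, 61693 and 43443 in E14, and 15462 and 17540 in 3T3, and they carry no read counts, so depth is unknown. The only gene table used here is of the GRCm38 assembly, so peaks are given by their mm9 position and no gene names are attached to them.

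P19 cells had a smaller share of their peaks in the windows than E14 or 3T3 cells, at 0.631-fold of the E14 share. P19 libraries had 96 and 108 peaks there, E14 libraries 211 and 162, and 3T3 libraries 50 and 51. As a share of all peaks of a library these were 0.240% and 0.211% in P19, 0.342% and 0.373% in E14, and 0.323% and 0.291% in 3T3. Both P19 shares lay below all 4 others, as they did in 12.5% of 5 Mb bins of the genome, and the E14 and 3T3 shares lay close together. The mean share was 0.225 ± 0.020% in P19, 0.357 ± 0.022% in E14 and 0.307 ± 0.023% in 3T3 (SD, n = 2 each). The ratio of P19 to E14 ranged from 0.566 to 0.702 over the 4 pairs of libraries. P19 stood at 0.734-fold of 3T3 (0.652 to 0.825). Wilson 95% intervals, which reflect the number of peaks alone, were 0.197% to 0.293% and 0.175% to 0.255% in P19, 0.299% to 0.391% and 0.320% to 0.435% in E14, and 0.245% to 0.426% and 0.221% to 0.382% in 3T3.

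On the rest of chromosome 14 P19 lay nearer to E14 and above 3T3. P19 held 2.91 ± 0.007% of its peaks there, E14 3.15 ± 0.037% and 3T3 2.51 ± 0.158% (SD, n = 2 each). P19 was at 0.923-fold of E14 and at 1.16-fold of 3T3 on this part of the chromosome. Put as density, the windows held 9.60 and 10.8 peaks per Mb in P19, 21.1 and 16.2 in E14, and 5 and 5.1 in 3T3. The rest of the chromosome held 10.1 and 12.95 peaks per Mb in P19, 16.7 and 11.99 in E14, and 3.22 and 3.99 in 3T3. The windows were thus denser than the rest of chromosome 14 in the 4 E14 and 3T3 libraries, at 1.26 and 1.35 times in E14 and 1.55 and 1.28 times in 3T3. In P19 they were no denser, at 0.952 and 0.834 times.

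The inner window was short of P19 peaks against both other lines, the terminal window mainly against E14. The inner window held 39 and 46 peaks in P19, 91 and 70 in E14, and 25 in each 3T3 library. Its P19 share was 0.607-fold of E14 and 0.616-fold of 3T3. The terminal window held 57 and 62 peaks in P19, 120 and 92 in E14, and 25 and 26 in 3T3. Its P19 share was 0.649-fold of E14 but 0.850-fold of 3T3, and the pair of libraries closest to each other gave 0.961-fold. The 3T3 counts are small, so this second ratio is loosely fixed.

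**Figure D1:**
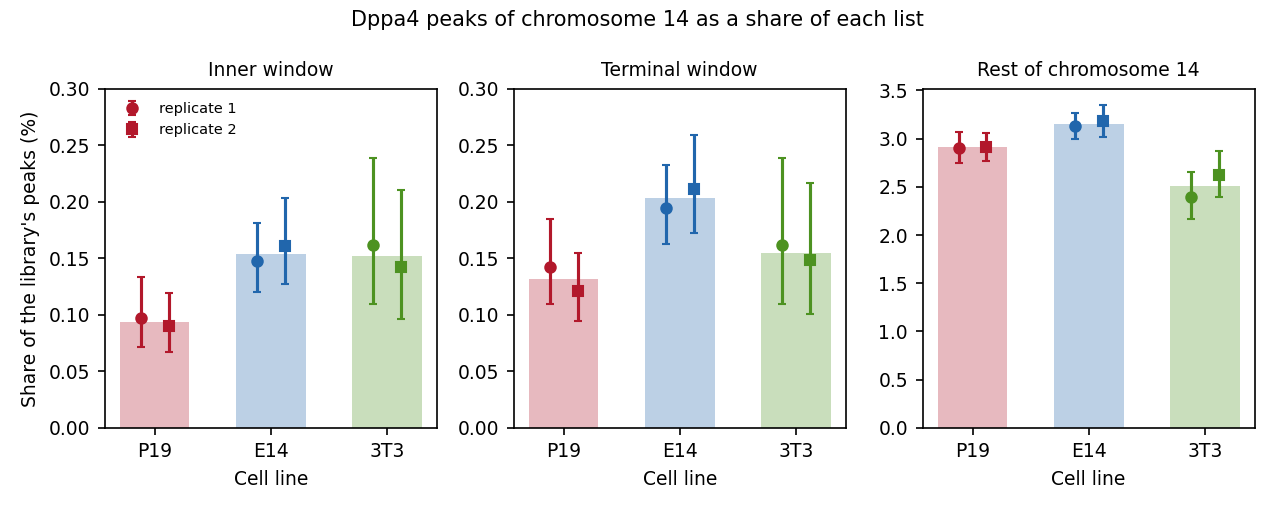
Share of each library's Dppa4 peaks (%, vertical axis) in the inner window, the terminal window and the rest of chromosome 14, for P19, E14 and 3T3. Points are libraries with Wilson 95% intervals and bars are the means of 2 libraries. P19 points lie lowest in both windows, while on the rest of the chromosome P19 (2.91%) lies between E14 (3.15%) and 3T3 (2.51%).

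E14 and 3T3 values are likewise given as a description, since both lines were what P19 was set against when the windows were chosen. The E14 share of both windows together was 1.16-fold the 3T3 share, with 0.342% and 0.373% in E14 and 0.323% and 0.291% in 3T3. The groups did not overlap, and 2 libraries against 2 could in any case give no exact permutation p under 0.333. On the rest of chromosome 14 the ratio of E14 to 3T3 was 1.26-fold. By window, E14 and 3T3 shares overlapped in the inner window (1.01-fold) and did not in the terminal one (1.31-fold). Over the genome both E14 shares exceeded both 3T3 shares in 38.7% of 519 bins of 5 Mb. As a share of chromosome 14 peaks alone, and with the best-scoring 50% of each list, 3T3 was slightly the higher line by its mean. The log2 ratios of E14 to 3T3 were then -0.10 and -0.031, and the libraries of the lines overlapped in both cases.

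Within the windows the shortfall in P19 was uneven. It was deepest from 121 to 122 Mb, where P19 had 9 and 11 peaks and E14 35 and 26, a share 0.377-fold that of E14. The next deepest were 78 to 79 Mb, with 5 and 6 peaks in P19 and 13 and 14 in E14 (0.454-fold), and 76 to 77 Mb, with 11 and 13 in P19 and 29 and 23 in E14 (0.529-fold). From 122 to 123 Mb P19 had 16 and 14 peaks and E14 36 and 28 (0.548-fold). At the far end, from 124 to 125 Mb, there was no shortfall, with 17 and 18 peaks in P19 and 17 and 16 in E14 (1.21-fold). In 3T3 the peaks gathered at 76 to 77 Mb (11 and 10 peaks) and at 122 to 123 Mb (9 and 11), which were also among the richest stretches of E14. P19 had its highest counts from 79 to 80 Mb (12 and 14 peaks) and from 124 to 125 Mb (17 and 18). Its counts were only a little lower at 76 to 77 Mb (11 and 13) and at 122 to 123 Mb (16 and 14).

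**Figure D2:**
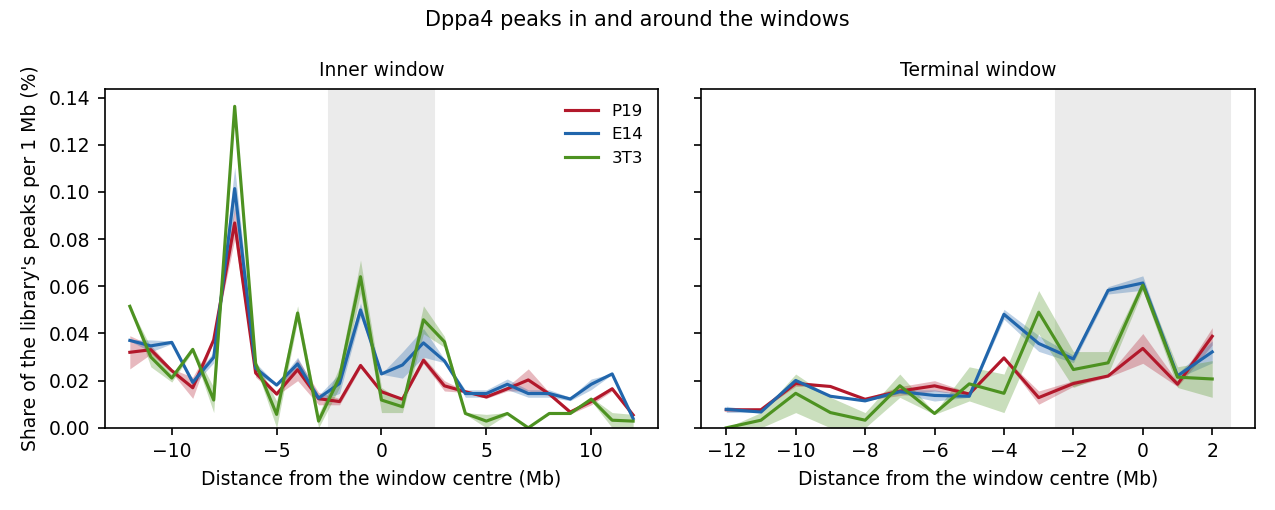
Share of each library's peaks per 1 Mb (%, vertical axis) against the distance from the centre of each window (Mb, horizontal axis). Lines are means of the 2 libraries, coloured bands run between them, and the grey field is the window. In the terminal panel E14 and 3T3 are highest inside the window, at 122 to 123 Mb, where P19 is lower. In the inner panel all 3 lines are highest before the window, at 70 to 71 Mb. Inside the inner window E14 and 3T3 rise at 76 to 77 Mb, where P19 is lower. At the end of the terminal window P19 meets E14.

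Each window had stretches without a P19 peak in which E14 had some. The longest of the inner window ran from 76997605 to 77436108, 438.5 kb, and held 1 and 3 E14 peaks. The second ran from 77939857 to 78304176 and held 4 and 5 E14 peaks, and the third from 75841292 to 76154215 with 2 and 3. In the terminal window the longest ran from 123501626 to 123818868, 317 kb, with 2 and 1 E14 peaks, and the second from 121904564 to 122172218 with 4 and 5. No 3T3 peak lay in these 5 stretches. The third of the terminal window, from 122925490 to 123175779, held 2 and 1 peaks in the E14 libraries and 1 in each 3T3 library. Over the whole inner window E14 had 18.2 and 14 peaks per Mb, and over the terminal one 24 and 18.4. The longest stretch of each window was thus sparse in E14 too. Stretches outside the windows are not given here.

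The windows belong to a longer part of chromosome 14 in which P19 lay below E14. Over 519 bins of 5 Mb that averaged at least 20 peaks, the log2 ratio of P19 to E14 shares had a median of -0.01 and a 5th percentile of -0.28. The inner window had -0.72, the second lowest value of all bins, and the terminal window -0.62, the fourth lowest. The bin from 100 to 105 Mb, between them and outside the rule, had -0.70 and stood between them in rank. Of the 10 lowest bins of the genome, 6 lay on chromosome 14 from 75 Mb onward. In the 9 such bins the median was -0.49 (range -0.72 to 0.10), against -0.07 (range -0.30 to 0.22) in the 15 bins before 75 Mb. The split at 75 Mb was set after the values were seen.

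The edges of the windows were not alike. The bins on either side of the inner window had log2 ratios of -0.19 (70 to 75 Mb) and -0.12 (80 to 85 Mb), much nearer to 0 than the window itself. The bin before the terminal window, from 115 to 120 Mb, still had -0.49, with 37 and 45 peaks in P19 and 75 and 57 in E14. Its shortfall lay next to the window, at 0.616-fold of E14 from 118 to 119 Mb and 0.358-fold from 119 to 120 Mb. Before 118 Mb the mean P19 share of each 1 Mb of this bin was no lower than that of E14. The value from 119 to 120 Mb was lower than that of any 1 Mb inside the windows, where the lowest was 0.377-fold. In each window taken alone, both P19 shares also lay below all 4 E14 and 3T3 shares, which was so in 65 of the 519 bins. P19 lay below both E14 shares in 24.9% of them. Nothing is read from these counts, since the windows were picked on this contrast. With the windows left out, the stretch from 75 Mb to the chromosome end held 0.540% and 0.494% of the P19 peaks, 0.635% and 0.681% of the E14 peaks and 0.369% and 0.399% of the 3T3 peaks. P19 was there at 0.785-fold of E14 and at 1.35-fold of 3T3.

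**Figure D3:**
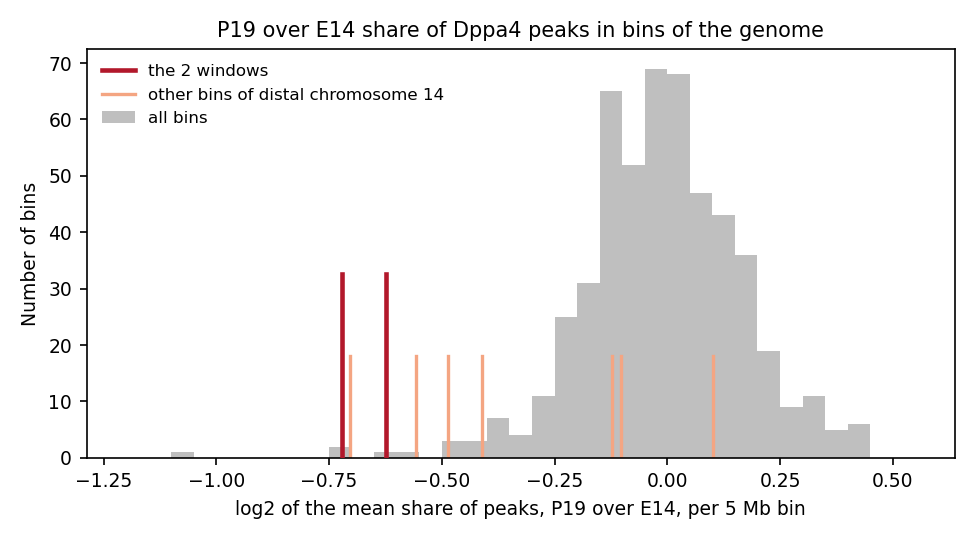
Number of 5 Mb bins (vertical axis) by the log2 ratio of mean peak shares, P19 over E14 (horizontal axis), for 519 bins. Dark red lines mark the 2 windows (-0.72 and -0.62) and pale lines the other bins of chromosome 14 from 75 Mb on, most of which also lie left of the centre.

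Against E14, the P19 shortfall was found among strong and weak peaks alike. Each list was cut into 4 bands of equal size by the authors' peak score. In the strongest band the windows held 21 and 27 peaks in P19, 60 and 43 in E14, and 10 and 13 in 3T3. Their share of that band was 0.210% and 0.211% in P19, 0.389% and 0.396% in E14, and 0.259% and 0.296% in 3T3. P19 was thus at 0.536-fold of E14 among the strongest peaks. The ratio was 0.854-fold in the next band, 0.548-fold in the one after and 0.617-fold among the weakest. In the 0.854-fold band P19 replicate 1 (0.290%) nearly met E14 replicate 1 (0.292%). Against 3T3 the ratios, from the strongest band down, were 0.758-fold, 0.607-fold, 0.898-fold and 0.788-fold. In the weakest band and the one above it, P19 and 3T3 libraries overlapped. No steady trend with score was seen. The highest scores were reached by few window peaks, and no difference is read from their counts. Scores at or above 3100, where many P19 peaks are tied, were reached by 1 and 3 window peaks in P19 (1.04% and 2.78%), against 4.13% and 4.89% of the P19 peaks on the rest of chromosome 14. No window peak of E14 or 3T3 reached it, against 0.570% and 0.507% of E14 peaks and none of the 3T3 peaks on the rest of the chromosome. In P19 replicate 2 all 3 such peaks lay in the terminal window, 4.84% of its peaks.

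Window peaks ranked above the rest of chromosome 14 in both 3T3 libraries and below it in both E14 libraries. Scores were turned into percentiles within a list, 100 being the strongest peak. The median percentile in the windows was 50.9 and 55.6 in P19, 49.9 and 49.97 in E14, and 56.7 and 54.7 in 3T3. On the rest of the chromosome it was 51.8 and 50.2 in P19, 52.2 and 54.1 in E14, and 41.9 and 44.0 in 3T3. Window peaks thus ranked 14.7 and 10.7 points higher in 3T3, lower in E14 (differences of -2.33 and -4.08 points), and on either side of 0 in P19 (-0.91 and 5.47). Over the 6 libraries 3 differences were positive (two-sided exact sign test, p = 1). The 3T3 excess came mostly from the inner window, with medians of 64.1 and 68.4, against 50.9 and 51.6 in the terminal one. These directions did not last when only the best-scoring 50% of each list was kept, where the mean difference was -7.51 points in P19, 5.54 in E14 and -1.71 in 3T3. Set against the other autosomes instead, the mean difference of 3T3 was 4.94 points, against 12.7 with the rest of chromosome 14, and that of E14 was 0.52.

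Peak widths were much the same in the windows and outside. The median width was 400 and 513 bp in the P19 windows, against 442 and 532.5 bp on the rest of the chromosome. E14 windows had 407 and 733.5 bp, against 411 and 767 bp. 3T3 windows had 378.5 and 821 bp, against 352 and 806 bp. Widths were below the rest in 4 of 6 libraries (two-sided exact sign test, p = 0.688). Both libraries of a line count in each sign test although they are not independent.

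In E14, window peaks met a peak of the other library about as often as others on the chromosome, and in both 3T3 libraries more often. In P19 the libraries went in opposite directions. Of the P19 window peaks, 86.5% of replicate 1 and 73.1% of replicate 2 had a partner of at least 1 bp overlap in the other P19 library, against 88.9% and 66.0% outside the windows. The E14 shares were 68.2% and 84.6%, against 68.8% and 88.1% outside. The 3T3 shares were 94.0% and 72.5%, against 87.3% and 56.3% outside. Across regions found in both libraries of a line, scores ranked much alike in both, with Spearman correlations of 0.92 over 78 P19 regions, 0.84 over 136 E14 regions and 0.79 over 36 3T3 regions. These are correlations across regions of the same libraries, which are not replicates.

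Of the E14 regions, P19 held a smaller part in the windows than outside, and those it lacked were mostly weak in both places. A region here is the union of overlapping peaks of both libraries of a line. Of the 136 E14 regions in the windows, 69 were also P19 regions, or 50.7% (Wilson 95% interval 42.4 to 59.0), against 63.8% (61.0 to 66.4) of the 1212 E14 regions on the rest of the chromosome. The gap between windows and rest was -13.0 percentage points with all peaks, -25.6 with every list limited to 15462 peaks, -8.68 with the best-scoring 50% of each list, and -19.1 and -8.78 for the inner and the terminal window alone. Leaving out a library gave -16.7 to -9.80. Counting single P19 libraries as well left 43 E14 regions (31.6%) with no P19 peak at all in the windows, against 18.4% outside. Those 43 had a median E14 percentile of 36.2, against 36.7 for the 223 E14 regions without a P19 peak outside. None of the 43 and 8 of the 223 were above a percentile of 75. E14 regions with a P19 peak had a median of 74.4 in the windows, against 69.5 outside.

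P19 held a smaller share of E14 regions in the windows than outside in each of 4 bands of E14 strength. The E14 regions of the whole genome were ranked by mean E14 percentile and cut into 4 bands. In the lowest band, P19 held 2 of 33 (6.06%, 1.68 to 19.6) in the windows, against 26.6% (21.8 to 32.1) outside. In the next band it held 10 of 30 (33.3%, 19.2 to 51.2), against 51.9% (46.2 to 57.5). In the third it held 62.9% (46.3 to 76.8), against 73.7% (68.6 to 78.2), and in the highest 92.1% (79.2 to 97.3), against 97.5% (95.1 to 98.7). The windows differed in the highest band. P19 held 10 of 13 (76.9%) in the inner window but 25 of 25 (100%) in the terminal one. Counting a peak in at least 1 P19 library, the shares from the lowest band up were 30.3%, 43.3%, 91.4% and 100% in the windows, against 52.9%, 79.1%, 91.2% and 99.4% outside. The second band then had the widest gap. These shares restate the choice of the windows and carry no test. For 3T3 the windows gave 23.5% of E14 regions (17.2 to 31.3), against 18.0% (15.9 to 20.2) outside.

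**Figure D4:**
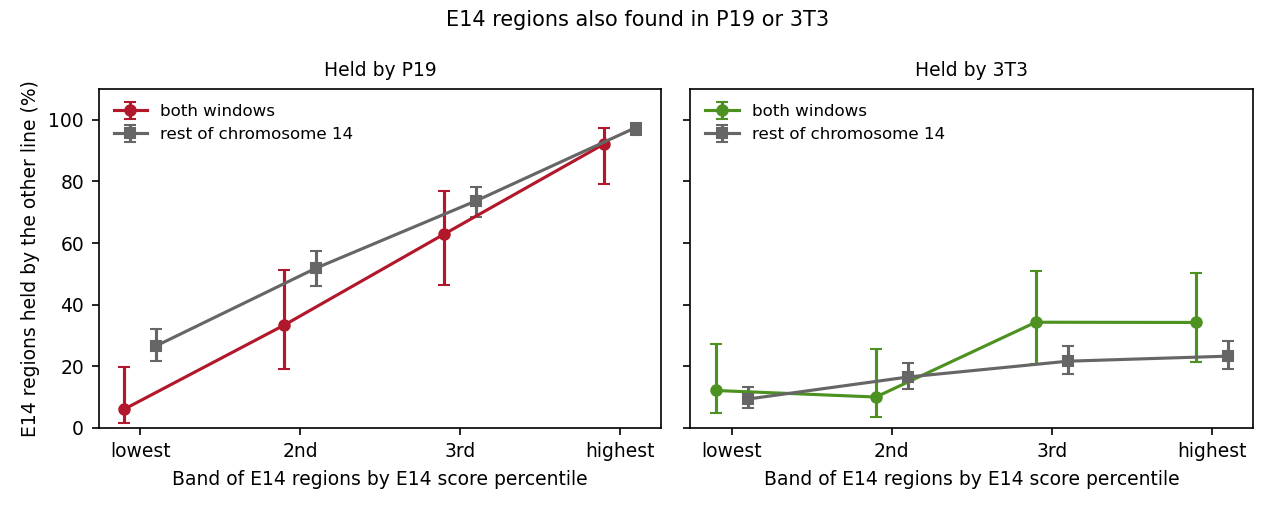
Share of E14 regions also held by P19 (left) or 3T3 (right) in percent, by band of E14 regions from the lowest to the highest E14 score percentile, for the windows and for the rest of chromosome 14. Bars are Wilson 95% intervals. In the lowest band P19 held 6.06% in the windows and 26.6% outside.

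Where P19 did share a site with E14 in the windows, the site mostly ranked lower in P19. The windows held 68 regions of both lines. Their median percentile was 62.9 and 69.8 in P19, against 82.9 and 76.9 in E14. The median difference between the line means, P19 minus E14, was -16.5 points, and P19 ranked lower at 49 of the 68. Over 770 such regions on the rest of the chromosome it was -3.67 points. P19 ranked higher than E14 at 27.9% of the window regions, against 37.4% of those outside. The difference was -18.5 points over 43 regions of the terminal window and -4.25 points over 25 of the inner one. The order of sites was also less shared, with a Spearman correlation of 0.47 between line means over the window regions and 0.71 over the others. All of these are descriptions of the contrast on which the windows were chosen.

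**Figure D5:**
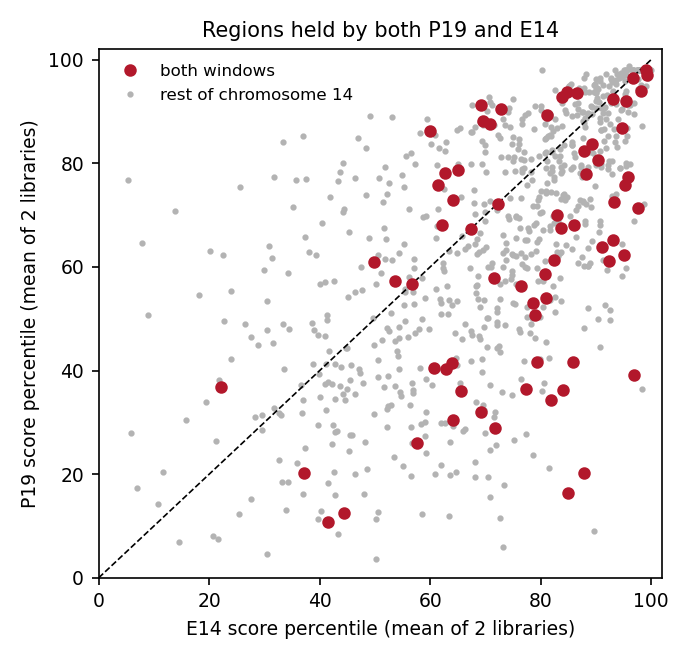
Mean score percentile in P19 (vertical axis) against E14 (horizontal axis) for regions held by both lines, in the windows (68 red points) and on the rest of chromosome 14 (770 grey points). The dashed line marks equal percentiles, and 49 of the red points lie below it.

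Merged over the lines, the windows held 148 regions. P19 and E14 without 3T3 held 53 of them, all 3 lines 15, E14 alone 50, E14 and 3T3 without P19 17, P19 alone 9, 3T3 alone 3 and P19 with 3T3 1. Regions of E14 and 3T3 without P19 made up 11.5% (7.30 to 17.6) in the windows, against 4.20% (3.28 to 5.37) of the 1428 regions outside. Of these 17 regions, 7 had no peak in either P19 library. The 17 were not among the faintest, since their median percentile was 77.2 and 66.7 in E14, against 67.4 and 71.1 in 3T3. E14 alone made up 33.8% in the windows, against 26.2% outside, and P19 alone 6.08%, against 12.5%. All of these shares restate the choice of the windows on sparse P19 peaks and carry no test. Regions of P19 alone were short and weak, with a median length of 377 bp and median P19 percentiles of 27.1 and 35.2. Alone means without a region of another line, and a single library of that line could still have a peak. Of the 9 regions of P19 alone, 6 had a peak in E14 replicate 1 and 1 in E14 replicate 2. Of the 50 of E14 alone, 36 had no peak in either P19 library.

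The strongest E14 regions without any P19 peak were of middling rank. The leading one of the inner window occupied chromosome 14 from 76244431 to 76245842. E14 scored 271 and 250 there, and 3T3 177 and 493. It lies within the 76 to 77 Mb stretch described above. The second lay from 78696624 to 78697572 and scored 192 and 124 in E14, with no 3T3 peak. The leading one of the terminal window reached from 122505939 to 122507081. It scored 225 and 350 in E14 and 286 and 709 in 3T3, and it was also the second strongest 3T3 region of that window. The next lay from 120877167 to 120878707, with 402 and 168 in E14 and 63.5 and 303 in 3T3. In 3 of these 4 regions, E14 and 3T3 both had peaks in both libraries.

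The strongest P19 regions were strong in E14 as well. The first of the terminal window spanned 123831801 to 123833490. P19 scored 3100 there in both libraries and E14 2010 and 2042, but 3T3 54.96 and 56.4. The second lay from 122924250 to 122925496, with 3023 and 3100 in P19, 2449 and 1963 in E14 and no 3T3 peak. In the inner window the first lay from 79589485 to 79590416, with 1683 and 2648 in P19 and 1731 and 1370 in E14. The second lay from 79396484 to 79397509, with 1626 and 2596 in P19 and 468 and 454 in E14. Neither had a 3T3 peak. Scores are the authors' own and their sizes were read within a list, since the scale is not named.

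At regions of all 3 lines the order of the lines differed from these. The first of the inner window lay from 77555952 to 77557772 and was also its strongest 3T3 region. It stood at percentiles of 14.8 and 57.6 in P19, 85.9 and 82.2 in E14, and 97.9 and 97.3 in 3T3. The next lay from 76955898 to 76956981, at 60.3 and 56.8 in P19, 81.3 and 80.1 in E14, and 74.3 and 76.8 in 3T3. The first of the terminal window, from 121777311 to 121779320, stood at 68.8 and 74.0 in P19, 98.1 and 97.1 in E14, and 74.6 and 92.2 in 3T3. The second, from 123381484 to 123382984, stood at 57.8 and 69.8 in P19, 94.6 and 87.7 in E14, and 82.7 and 94.1 in 3T3, and was the strongest 3T3 region of that window. P19 ranked lowest of the 3 lines at each of these 4 regions by the mean of its libraries. This was not so at every region of all 3 lines. The strongest P19 region of the terminal window was also one, and 3T3 ranked lowest there, at 11.1 and 7.74. The second 3T3 region of the inner window, from 79131501 to 79133134, stood at 94.1 and 74.3 in E14 and 89.3 and 92.7 in 3T3, while P19 had a peak in replicate 2 alone, at 44.8.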

How the data were processed

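Peaks of 6 DPPA4 immunoprecipitated libraries were analysed. The 3 input libraries were not analysed here. Per the submitters' processing notes, CASAVA 1.8, bcl2fastq 1.8, BWA 0.7.13-r1126 and SAMtools 1.3 were used with mm9. The deposited lists give 1 score per peak, made by the authors' peak caller in each library separately. Peak names begin with MACS, and its version, its threshold and any use of input are not given here. The lowest deposited score was 50, and read depth is unknown. Because score scales may differ, percentiles within a list were used. Membership went by peak start, overlaps needed 1 bp, and a line's region joined overlapping peaks of both libraries. Regions were named by strength within each window: the 2 strongest of E14 without a P19 peak, of P19, of all lines and of 3T3, and the 3 longest stretches without a P19 peak. The windows, tests and rules were chosen with earlier results of these data known. Coordinates are 1-based. Overlap code was tested on simulated lists. Software was SciPy 1.17.1, pandas 2.3.3 and NumPy 2.4.6 under Python 3.11.15. Alternatives were other list lengths, denominators, overlaps and bins, each window alone, leaving out each library, and a replicate block.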

Additional observations from a re-analysis of the deposited data

Results flagged for a closer look

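Medians within the windows, set against the rest of chromosome 14, moved in opposite directions in different lines. For the score percentile, every 3T3 library was positive (14.7 and 10.7 points) and every E14 library negative (-2.33 and -4.08 points). For the median width, both P19 ratios were below 1 (0.905 and 0.963), both E14 ratios were below 1 (0.990 and 0.956), and both 3T3 ratios were above 1 (1.08 and 1.02). By window, the 3T3 width ratios were 1.23 and 1.10 in the inner one but 0.980 and 0.901 in the terminal one. E14 replicate 2 had 1.005 in the inner window. The differences between lines were not tested, since 2 libraries against 2 cannot give an exact p under 0.333.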

How the results depend on the processing

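The P19 shortfall in peak share kept its direction under all 13 alternatives against E14 (log2 -0.77 to -0.50, main value -0.67) and all 13 against 3T3 (-0.70 to -0.23, main value -0.45). The windows were chosen on this shortfall in the same lists, so its direction was largely set beforehand. The alternatives show only how its size varied. The larger moves were -0.50 against E14 as a share of chromosome 14 peaks, and -0.70 in the inner and -0.23 in the terminal window alone against 3T3. Leaving out a library gave -0.76 to -0.58 against E14 and -0.54 to -0.36 against 3T3. The E14 over 3T3 ratio (log2 0.22) turned to -0.031 with the best-scoring 50% of each list and to -0.10 as a share of chromosome 14 peaks. The mean percentile difference (3.93 points) turned to -1.23 with the best-scoring 50% of each list. Against the other autosomes in place of the rest of chromosome 14 it was 3.10 points and positive in 6 of 6 libraries (two-sided exact sign test, p = 0.031). The mean log2 width ratio (-0.024) turned to 0.026 with lists of equal length and to 0.018 in the inner window alone, and it was -0.086 against the other autosomes, negative in 6 of 6 libraries (two-sided exact sign test, p = 0.031). Both libraries of a line count in these sign tests although they are not independent, so no conclusion is drawn from either p-value. By line, the percentile difference turned in P19 to -7.51 (best 50%), -3.54 (equal length) and -5.21 (inner window). In E14 it turned to 5.54 (best 50%), 0.18 (equal length) and 0.52 (other autosomes), and in 3T3 to -1.71 (best 50%), where it was 4.94 against the other autosomes and 12.7 as reported. The difference in E14 regions held by P19 (-13.0 percentage points) widened to -25.6 with lists of 15462 peaks and was -8.68 with the best-scoring 50%, leaving out a library gave -16.7 to -9.80, and that for 3T3 (5.54 points) turned to -0.84 against the other autosomes. The count of bins with P19 below all others (65) was 109 without P19 replicate 2, and leaving out a library gave 73 to 109. Leaving out a library also drops a condition that each bin must meet, so a higher count is largely set by the rule. The cause of the other changes was not tested. With a replicate block, pairing libraries of the same number, the log2 ratios were -0.67 (P19 over E14), -0.45 (P19 over 3T3) and 0.22 (E14 over 3T3). No label ties libraries of the same number together. Over the bins, same-numbered libraries deviated with correlations of -0.27 (P19 with E14), -0.17 (P19 with 3T3) and 0.29 (E14 with 3T3). The lists show called peaks alone, so a missing P19 peak may lie below detection.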
